A study of Mus musculus with 4 samples.

Results

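Prostaglandins and leukotrienes are lipid messengers made from arachidonic acid, and the genes described here encode their enzymes and receptors. They were 10 genes, out of 23211 gene names in the deposited table, taken by symbol: Ptgs1, Ptgs2 and Ptges of prostaglandin synthesis, the prostanoid receptors Ptger2, Ptger3, Ptger4 and Ptgir, Alox5 and Alox5ap of leukotriene synthesis, and the leukotriene B4 receptor Ltb4r1. Ptger3 had 2 loci and every other gene 1. The genes were chosen with their values after sheep red blood cells (SRBC) and after phosphate-buffered saline (PBS) in these libraries already known, so their differences between the groups are given as a description, without p-values.

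RNA came from CD4+ CD8- CD11c+ I-Ab+ dendritic cells sorted from mouse spleen, the subset that lies where blood-borne particles arrive. The SRBC mice were C57BL/6 animals heterozygous for GPR183, 1 h after 1000000000 sheep red blood cells. The PBS mice were C57BL/6 animals of the same GPR183 heterozygous genotype, 1 h after 100 uL of PBS. Each group had 2 libraries, no wild-type Gpr183 group was among the samples, and the sources used here give no age, sex or pooling of animals.

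Cyclooxygenases turn arachidonic acid, released from membranes by phospholipases, into prostaglandin H2, which separate synthases turn into prostaglandin E2, prostacyclin and the other prostanoids. Prostaglandin E2 acts through receptors EP1 to EP4: EP2 and EP4 raise cyclic AMP and EP3 usually lowers it, and in dendritic cells prostaglandin E2 is known for its effects on maturation and migration. Leukotrienes are made by 5-lipoxygenase with its partner FLAP, and leukotriene B4 attracts myeloid cells through the receptor BLT1.

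Values are FPKM (fragments counted per kilobase and per library size), which allows levels of different genes to be compared. Summed FPKM was 509007 and 558016 in SRBC libraries 1 and 2 and 410321 and 377167 in PBS libraries 1 and 2. The sources used here give no read totals. The smallest steps between values gave an estimated depth of 8240000 to 9100000 fragments a library, and a transcript of 2 kb at 1 FPKM then had 16.5 to 18.2 fragments. The genes of the sort were present, with Cd4 at 75.8 and 96.4 FPKM in the SRBC libraries and 88.4 and 86.6 FPKM in the PBS libraries. Cd8a was between 1.20 and 2.63 FPKM in all 4. Of 8 markers of the sorted cells, 3 were called higher after SRBC (H2-Ab1, Zbtb46 and Dtx1), 1 lower and 4 not called. Over all tested loci 13.5% were called higher and 6.2% lower. The lower marker, Clec4a4, was at 2.11 and 1.55 FPKM in the SRBC libraries and 3.68 and 7.76 FPKM in the PBS libraries. The authors' deposited cuffdiff q-value was 0.932 for H2-Ab1, 0.190 for Zbtb46, 0.0289 for Dtx1 and 0.0010 for Clec4a4. Whether the sorted cells were the same mix in both groups was not tested. Xist was at 339 and 306 FPKM in the SRBC libraries and 0.210 and 0.327 FPKM in the PBS libraries, and Ddx3y, on the Y chromosome, was at 0.0307 and 0.00819 FPKM in the SRBC libraries and 17.2 and 20.4 FPKM in the PBS libraries, so injection and the sex of the mice cannot be told apart in any difference below.

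Markers of other spleen cells were summed per list. The gate requires CD11c and I-Ab and no CD8, so it would remove CD8 dendritic cells, neutrophils and red cell precursors. Neutrophil markers summed to 39.3 and 90.2 FPKM in the SRBC libraries and 59.5 and 5.90 FPKM in the PBS libraries, led by S100a9, with 2 of 4 tested markers called higher and overlapping groups. Red cell precursor markers summed to 114 and 196 FPKM in the SRBC libraries and 65.2 and 12.8 FPKM in the PBS libraries, led by Hbb-b1, with 4 of 5 called higher. Platelet markers, led by Ppbp, summed to 10.8 and 12.1 FPKM in the SRBC libraries and 5.94 and 8.75 FPKM in the PBS libraries, with 1 of 2 tested markers called higher. Monocyte and macrophage markers, led by Adgre1, summed to 103 and 138 FPKM in the SRBC libraries and 126 and 102 FPKM in the PBS libraries. The summed levels of monocyte and macrophage, B cell, T cell, NK cell, plasmacytoid dendritic cell, CD8 dendritic cell and eosinophil markers overlapped between the groups. The CD8 dendritic cell sum joins markers with opposite directions. Cd24a was called higher, at 27.3 and 35.1 FPKM in the SRBC libraries and 18.0 and 7.13 FPKM in the PBS libraries. Clec9a was called lower, at 10.1 and 12.1 FPKM in the SRBC libraries and 20.7 and 16.1 FPKM in the PBS libraries. The other 3 tested markers of that list were not called. Mast cell and basophil markers summed to at most 0.565 FPKM in any library, with Fcer1a and Prss34 at 0 in all 4. The part of such cells in the differences below was not tested. In bulk RNA, fewer cells with a transcript and less transcript per cell cannot be told apart.

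Promoter sequences are shown for the genes whose SRBC and PBS libraries did not overlap, so that the letters next to the start sites of genes with opposite directions can be compared. RefSeq's table on GRCm38.p6 (the mm10 build) matched 9 of the 10 genes, and Alox5ap was not among them. The 250 bases before each annotated start are printed 5′ to 3′ on the strand of the gene, at chr15:5244188-5244437 (minus) for Ptger4, chr1:150099781-150100030 (plus) for Ptgs2, chr3:157566626-157566875 (plus) for Ptger3 and chr14:55765712-55765961 (plus) for Ltb4r1. Capitals mark GC boxes (GGGCGG or its complement CCGCCC), the CCAAT box and the C/EBP motif TTGCGNAA.
Ptger4: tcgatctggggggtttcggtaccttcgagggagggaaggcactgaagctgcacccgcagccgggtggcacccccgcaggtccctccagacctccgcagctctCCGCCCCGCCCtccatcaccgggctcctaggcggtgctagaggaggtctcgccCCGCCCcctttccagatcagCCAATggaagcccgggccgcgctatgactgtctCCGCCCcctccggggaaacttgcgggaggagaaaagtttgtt
Ptgs2: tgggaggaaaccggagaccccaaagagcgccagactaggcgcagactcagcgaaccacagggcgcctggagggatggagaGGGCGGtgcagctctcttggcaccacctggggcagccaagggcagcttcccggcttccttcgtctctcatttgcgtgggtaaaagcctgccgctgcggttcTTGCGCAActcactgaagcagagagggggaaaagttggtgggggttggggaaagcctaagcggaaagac
Ptger3: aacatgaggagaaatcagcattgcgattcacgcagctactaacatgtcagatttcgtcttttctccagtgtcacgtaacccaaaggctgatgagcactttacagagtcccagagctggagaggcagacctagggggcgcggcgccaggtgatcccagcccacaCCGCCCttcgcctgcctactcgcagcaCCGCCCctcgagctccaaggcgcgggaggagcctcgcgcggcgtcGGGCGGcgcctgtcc
Ltb4r1: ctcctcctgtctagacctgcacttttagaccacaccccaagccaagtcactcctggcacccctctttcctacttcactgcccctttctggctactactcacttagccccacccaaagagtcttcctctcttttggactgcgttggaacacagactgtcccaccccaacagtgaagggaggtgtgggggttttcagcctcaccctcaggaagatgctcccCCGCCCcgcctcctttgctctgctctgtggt

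Of these bases 66.8% were G or C for Ptger4, 61.6% for Ptgs2, 62.0% for Ptger3 and 56.8% for Ltb4r1. The windows searched ran 250 bases before to 50 bases after the start, on both strands, in 27025 genes. Ptger4 held 4 GC boxes, of which a pair overlap by 1 base, and Ptger3 held 3, against 1 each in Ptgs2 and Ltb4r1. A GC box occurred in 35.9% of all promoters. Ptger4 held a CCAAT motif, found in 37.9% of promoters, and Ptgs2 a C/EBP motif, found in 0.807%. Just past its annotated start, from base 14 to base 22, Ptgs2 also held a CRE half-site (CGTCA) that overlaps an E-box (CACGTG), printed in capitals within 30 bases at chr1:150100035-150100064.
Ptgs2 site: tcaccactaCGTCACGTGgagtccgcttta

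The CRE half-site, the core of the element bound by CREB, occurred in 21.0% of promoters and the E-box in 7.24%. Among the 9 genes, Ptgs2 was the one with either of them. The NF-kB consensus, found in 1.62% of promoters, and the AP-1 letters TGANTCA, found in 7.93%, occurred in none of the 9 windows, which says that these letters are not in these windows.

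The genes of 2 prostaglandin E2 receptors had opposite directions after SRBC. Ptger4, which encodes EP4 (chromosome 15, 5206661 to 5244187, minus strand, mm10), measured 108 and 123 FPKM in the SRBC libraries and 20.9 and 8.81 FPKM in the PBS libraries. Both SRBC libraries lay far above both PBS libraries, and in proportion to their level the PBS libraries differed from each other more than the SRBC libraries did. The means were 115 ± 10.4 FPKM in SRBC libraries and 14.9 ± 8.58 FPKM in PBS libraries (SD, n = 2 each), a ratio of 7.76, and the log2 fold change (on the log2(FPKM + 1) scale, positive where SRBC is higher) was 2.98 ± 0.26 (SE). It was the value ranked 32 from the top among 11020 tested loci. It was 3.57 without PBS library 1 and 2.40 without PBS library 2. Of its exonic bases 15.3% are also covered by Gm15937 on the opposite strand, and the sources used here do not say whether strand was kept. The overlapping Ttc33 was at 2.81 and 3.88 FPKM in the SRBC libraries and 3.33 and 3.61 FPKM in the PBS libraries, far under Ptger4.

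Ptger3, which encodes EP3 (chromosome 3, 157566892 to 157645888, plus strand), was lower after SRBC at both of its loci. The more abundant locus measured 2.20 and 1.95 FPKM in the SRBC libraries and 5.68 and 9.12 FPKM in the PBS libraries. The other measured 0.425 and 0.211 FPKM in the SRBC libraries and 0.822 and 1.35 FPKM in the PBS libraries. At neither locus did the groups overlap, and the ratio between the loci ran from 5.17 to 9.25 over the 4 libraries. The abundant locus averaged 2.07 ± 0.176 FPKM in SRBC libraries and 7.40 ± 2.43 FPKM in PBS libraries (SD, n = 2 each). Its log2 fold change was -1.42 ± 0.28 (SE), the value ranked 72 from the bottom of the tested loci, and the scarce locus did not pass the filter on low values (FPKM of at least 1 in at least 2 libraries). An estimated 57.5 and 67.9 fragments lay behind the abundant locus in SRBC libraries 2 and 1. The files do not say which part of the gene, or which strand, each locus covers.

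The remaining receptors among the members were near the detection limit. Ptger2, which encodes EP2, the other EP receptor that raises cyclic AMP, measured 0.186 and 0.417 FPKM in the SRBC libraries and 0.0482 and 0.205 FPKM in the PBS libraries. Ptgir, the prostacyclin receptor gene, measured 0.0851 and 0.448 FPKM in the SRBC libraries and 0.137 and 0.473 FPKM in the PBS libraries. For each of these genes the groups overlapped and no library held more than an estimated 14.2 fragments, so a difference was not detectable at this depth.

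Because FPKM is per length, the receptor levels can be set against each other within a library. The ratio of Ptger4 to both Ptger3 loci together was 41.2 and 56.8 in SRBC libraries 1 and 2, against 3.22 and 0.842 in PBS libraries 1 and 2. With the abundant Ptger3 locus alone it was 49.1 and 62.9 in SRBC libraries 1 and 2, and 3.69 and 0.966 in PBS libraries 1 and 2. In PBS library 2 Ptger3 was therefore the more abundant of the pair, and in the other 3 libraries Ptger4 was. Among prostanoid receptor loci other than Ptger1, Ptger4 made up 97.0% and 96.9% of the summed FPKM in the SRBC libraries and 73.3% and 43.4% in the PBS libraries.

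**Figure D1:**
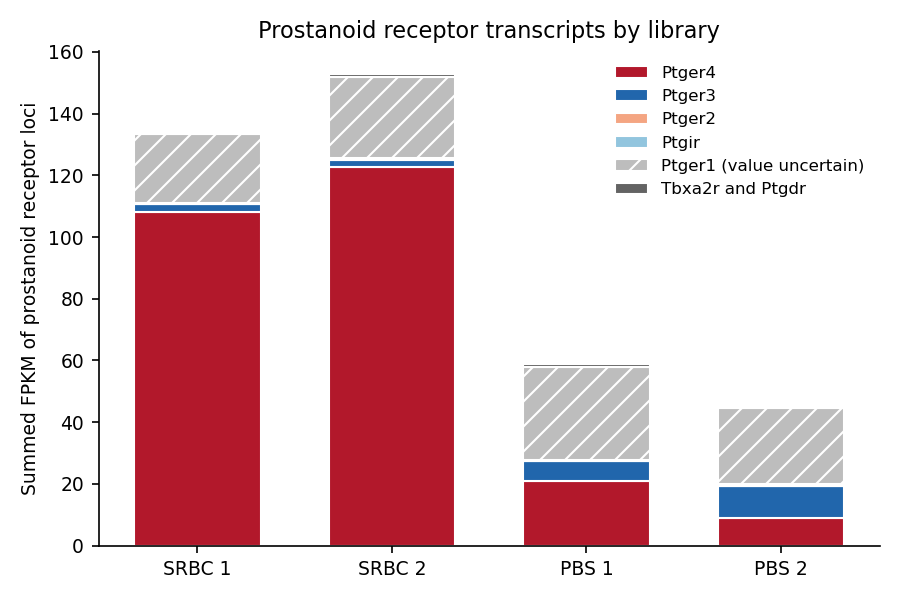
Stacked bars give the summed FPKM (vertical axis) of prostanoid receptor loci in each of the 4 libraries, SRBC at the left and PBS at the right, with 1 colour per gene and Ptger1, whose value is uncertain, hatched. Ptger4 fills 108 and 123 FPKM of the SRBC bars and 20.9 and 8.81 FPKM of the PBS bars, while the Ptger3 part is 2.62 and 2.16 FPKM in the SRBC bars and 6.50 and 10.5 FPKM in the PBS bars.

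Of 5 prostanoid receptor genes outside the 10, Ptger1, the EP1 gene, was the 1 that passed the filter. It was listed at 22.5 and 26.1 FPKM in the SRBC libraries and 30.2 and 24.7 FPKM in the PBS libraries, and did not pass the test (adjusted p = 0.66, limma). Its value is uncertain, and it was left out of the shares given for Ptger4.

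The cyclooxygenase genes differed in level. Ptgs2, the inducible cyclooxygenase COX-2 (chromosome 1, 150100031 to 150108227, plus strand), measured 90.4 and 89.5 FPKM in the SRBC libraries and 60.3 and 42.1 FPKM in the PBS libraries. The groups did not overlap, with means of 90.0 ± 0.647 FPKM in SRBC libraries and 51.2 ± 12.9 FPKM in PBS libraries (SD, n = 2 each). The promoter with the C/EBP motif and the site with the CRE half-site are those of this gene. The log2 fold change was 0.82 ± 0.22 (SE), smaller than that of Ptger4. It was 0.72 with median-of-ratios rescaling, 0.58 with upper-quartile rescaling, 0.31 after quantile normalization, 0.39 with TPM and 0.57 without PBS library 2. Ptgs1, the constitutive cyclooxygenase COX-1, measured 0.856 and 1.62 FPKM in the SRBC libraries and 1.26 and 0.718 FPKM in the PBS libraries, and the groups overlapped. Its log2 fold change was 0.16 ± 0.30 (SE) and turned to -0.090 with TPM, to -0.088 without SRBC library 2 and to -0.038 without PBS library 2. Ptgs2 exceeded Ptgs1 by a ratio of 106 and 55.4 in the SRBC libraries and 47.8 and 58.7 in the PBS libraries, so that Ptgs2 was the main cyclooxygenase transcript in both groups.

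Ptges, the inducible microsomal prostaglandin E synthase, was barely present. It was listed at 0.0346 and 0.0683 FPKM in the SRBC libraries and at 0.0366 and 0 FPKM in the PBS libraries. These values stand for an estimated 1.09 and 2.05 fragments in the SRBC libraries and 1.18 and 0 in the PBS libraries, and no fold is given.

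In the leukotriene branch the level of the 2 partners was far apart. Alox5ap, which encodes FLAP (chromosome 5, 149264767 to 149288153, plus strand), measured 154 and 177 FPKM in the SRBC libraries and 241 and 280 FPKM in the PBS libraries. It was the most abundant member in every library, and 97.9% of tested loci had a lower mean. Both SRBC libraries lay below both PBS libraries, with means of 165 ± 16.3 FPKM in SRBC libraries and 261 ± 27.7 FPKM in PBS libraries (SD, n = 2 each). The log2 fold change was -0.66 ± 0.23 (SE). It was -0.76, -0.90, -1.30 and -1.10 with median-of-ratios, upper-quartile, quantile and TPM rescaling. Without SRBC library 1, SRBC library 2, PBS library 1 and PBS library 2 it was -0.56, -0.76, -0.76 and -0.55. Alox5ap was not past the threshold with no filter on low values, nor with eBayes without a trend. Gm19719 on the opposite strand shares 13.3% of its exonic bases. Alox5, the 5-lipoxygenase gene, measured 0.139 and 0.230 FPKM in the SRBC libraries and 0.195 and 0.0407 FPKM in the PBS libraries, an estimated 4.28 and 6.77 fragments in the SRBC libraries and 6.17 and 1.33 in the PBS libraries. The groups overlapped, and a difference was not detectable at this depth.

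Ltb4r1, which encodes BLT1 (chromosome 14, 55765962 to 55768494, plus strand), measured 0.539 and 0.120 FPKM in the SRBC libraries and 1.59 and 1.87 FPKM in the PBS libraries. The groups did not overlap, but the values stand for an estimated 6.49 and 1.38 fragments in the SRBC libraries and 19.6 and 23.7 in the PBS libraries. The log2 fold change was -1.05 ± 0.30 (SE) with a pseudocount of 1, -2.28 with 0.1 and -2.70 with 0.01. It was -0.83 without SRBC library 2. Ltb4r1 passed the filter on low values through the PBS libraries alone, and a gene that enters the fit in that way had to differ in that direction. The neighbouring Ltb4r2, for the second leukotriene B4 receptor, was listed at 0 in all 4 libraries.

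**Figure D2:**
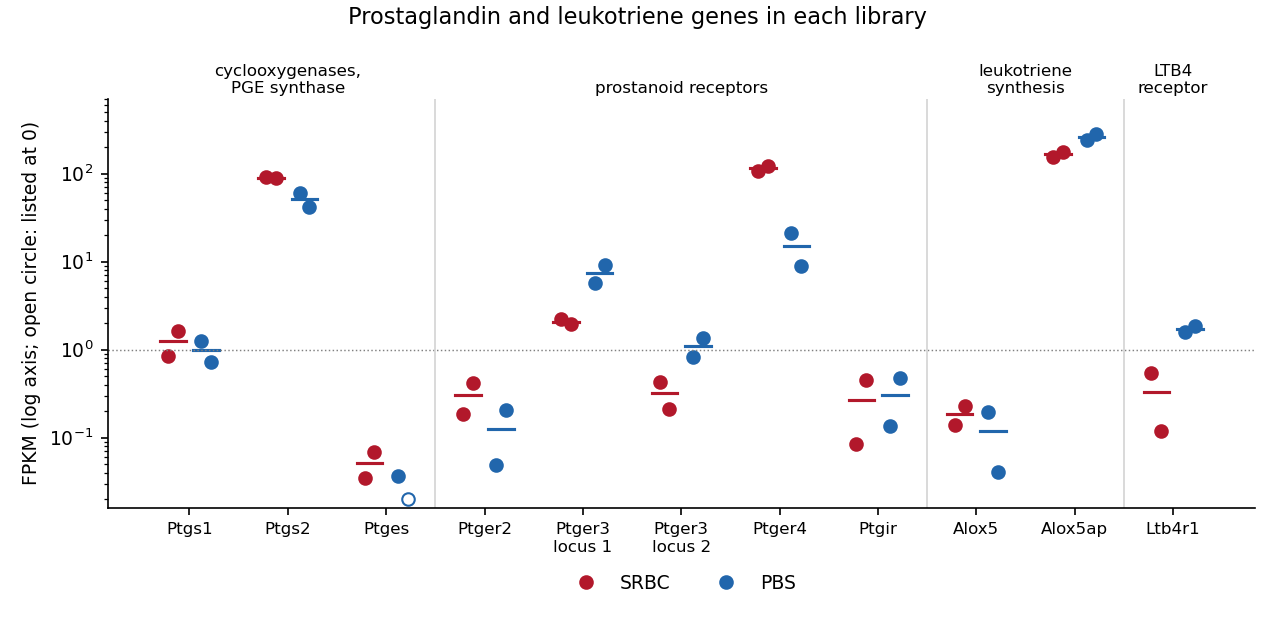
Each point is 1 library and each short line a group mean, in FPKM on a log axis, for the 11 loci of the 10 genes, with SRBC left of PBS and an open circle for a value listed at 0. Ptger4 and Ptgs2 are higher in both SRBC libraries, both Ptger3 loci, Alox5ap and Ltb4r1 are lower, and Ptges, Ptger2, Ptgir and Alox5 lie under the dotted line at 1 FPKM in every library.

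From high to low, mean levels ran Alox5ap, Ptger4, Ptgs2, Ptger3, Ptgs1 and Ltb4r1 in the SRBC libraries. In the PBS libraries they ran Alox5ap, Ptgs2, Ptger4, Ptger3, Ltb4r1 and Ptgs1, so that Ptger4 with Ptgs2, and Ptgs1 with Ltb4r1, stood in opposite order. The libraries of neighbours in these orders did not overlap, except those of Ptger4 and Ptger3 in the PBS group. Of the scarcer genes, the ranges of Ptger2, Ptgir and Alox5 overlapped one another within both groups, and Ptges lay below them.

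Of the 10 genes, 6 passed the filter and 4 (Ptges, Ptger2, Ptgir and Alox5) did not. Of the 6, 2 were past the threshold of the fit across all loci and higher after SRBC (Ptger4 and Ptgs2), where 13.5% of all tested loci were called higher, and 3 lower (Ptger3, Alox5ap and Ltb4r1), where 6.2% were called lower, and their median log2 fold change was -0.25 beside 0.07 for all tested loci. Both SRBC libraries lay above both PBS libraries for 2 of the 6 and below for 3, against 34.3% and 24.7% of all tested loci. In the authors' deposited table the q-value was 0.0010 for Ptger4 and for Ptger3, 0.0768 for Ptgs2, 0.0531 for Alox5ap, 0.884 for Ptgs1 and 1 for Ltb4r1, so that 3 of these 5 calls had no q-value under 0.05 there. Nothing is read from these counts, since the genes were picked on this contrast. Over all loci 1488 were called higher and 683 lower, or 629 and 1648 with TPM, which moved the median of all tested loci to -0.33.

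**Figure D3:**
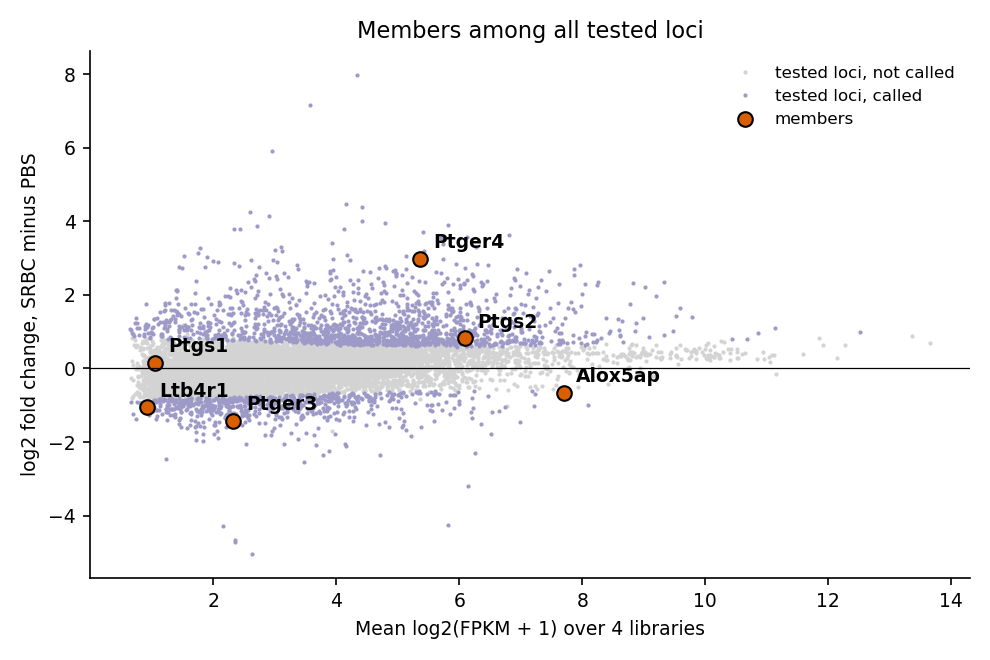
Each dot is 1 of 11020 tested loci, with the mean log2(FPKM + 1) over the 4 libraries on the horizontal axis and the log2 fold change, SRBC minus PBS, on the vertical axis, purple where limma called it. Large labelled points are the 6 members that passed the filter, from Ptger4 at 2.98 to Ptger3 at -1.42.

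The loci whose 4 values were most like those of Ptger4, by the Euclidean distance between log2(FPKM + 1) values over the 4 libraries, were Ehd1 (distance 0.62), Fam46c (0.64) and Mapk6 (0.81). Ehd1, a gene of endosome recycling, measured 129 and 131 FPKM in the SRBC libraries and 15.2 and 11.4 FPKM in the PBS libraries. For Ptger3 they were Skint3 (0.29), Jhdm1d (0.29) and Eif2c4 (0.30), of which Skint3 measured 2.30 and 2.24 FPKM in the SRBC libraries and 4.61 and 9.04 FPKM in the PBS libraries.

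The rest of the pathway was described with 51 other genes in 6 lists, 49 of which were in the table and 24 of which passed the filter. Among these, limma called 3 higher and 3 lower after SRBC, and 18 were not called, where 19.7% of all tested loci were called. Without SRBC library 2, 1 was called higher and 1 lower, and without SRBC library 1, 1 was called lower. Their median log2 fold change was -0.12, beside 0.07 for all tested loci. The 6 lists were chosen with earlier results of these data known, so their counts and adjusted p-values are a description. Exonic bases shared with genes on the opposite strand leave the values of Ptgr2 (32.0% of its bases), Gnas (13.1%), Pla2g7 (11.0%), Cyp4f18 (9.76%) and Crem (8.01%) uncertain to that extent.

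Among 12 phospholipases, 7 were tested and 1 was called lower. Pla2g4a, the cytosolic phospholipase A2 that releases arachidonic acid, measured 5.56 and 5.29 FPKM in the SRBC libraries and 8.40 and 12.0 FPKM in the PBS libraries. It fell, with a log2 fold change of -0.79 ± 0.26 (SE, adjusted p = 0.033, limma), the authors' deposited table gave a q-value of 0.021, and the call was lost without SRBC library 1, SRBC library 2 or PBS library 2. The most abundant phospholipase not called was Pla2g7, which inactivates platelet-activating factor, at 7.94 ± 0.529 FPKM in SRBC libraries and 9.74 ± 1.89 FPKM in PBS libraries (SD, n = 2 each).

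Of 9 prostanoid synthases other than Ptges, 6 were tested and 1 was called higher. Ptges3, which encodes p23, an HSP90 co-chaperone also described as a cytosolic prostaglandin E synthase, measured 75.2 and 79.8 FPKM in the SRBC libraries and 40.6 and 45.5 FPKM in the PBS libraries. It rose by 0.83 ± 0.22 on the log2 scale (SE, adjusted p = 0.0057, limma), without overlap. The authors' deposited table gave a q-value of 0.0128. The call was lost after quantile normalization (0.37), with TPM and without SRBC library 2. Akr1b3, an aldose reductase that can make prostaglandin F2α, was the most abundant synthase not called, at 62.2 ± 9.02 FPKM in SRBC libraries and 42.3 ± 3.30 FPKM in PBS libraries (SD, n = 2 each, adjusted p = 0.084, limma).

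Of 5 genes of prostaglandin transport and breakdown, 4 were tested and 1 was called lower. Hpgd, the dehydrogenase that inactivates prostaglandins (chromosome 8, 56294585 to 56321043, plus strand), measured 10.8 and 11.9 FPKM in the SRBC libraries and 21.8 and 32.7 FPKM in the PBS libraries. Both SRBC libraries lay below both PBS libraries. Hpgd fell by 1.17 ± 0.24 on the log2 scale (SE, adjusted p = 6.0e-04, limma), and it was called lower under each of the 15 alternatives. Its q-value in the authors' deposited table was 0.0010. The locus of Ptgr2, a prostaglandin reductase, also carries the name Zfp410 and was not called, at 12.3 ± 0.910 FPKM in SRBC libraries and 13.9 ± 3.97 FPKM in PBS libraries (SD, n = 2 each).

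Among 14 further leukotriene and lipoxygenase enzymes, 5 were tested, 1 was called higher and 1 lower. Mgst3, a microsomal glutathione transferase related to leukotriene C4 synthase, measured 3.33 and 2.51 FPKM in the SRBC libraries and 0.646 and 0.483 FPKM in the PBS libraries. It passed the filter on low values through the SRBC libraries alone, which fixes its direction, so its log2 fold change of 1.32 ± 0.29 (SE) is a description. The q-value in the authors' deposited table was 0.34. Cyp4f18, which oxidizes leukotriene B4 in mouse, measured 3.07 and 2.67 FPKM in the SRBC libraries and 5.85 and 5.61 FPKM in the PBS libraries. Its log2 fold change was -0.80 ± 0.27 (SE, adjusted p = 0.037, limma), a call lost after quantile normalization and without SRBC library 1, SRBC library 2 or PBS library 1, and the q-value in the authors' deposited table was 0.097. Lta4h, the hydrolase that makes leukotriene B4, was the most abundant of the list and was not called, at 39.9 ± 3.85 FPKM in SRBC libraries and 35.3 ± 6.65 FPKM in PBS libraries (SD, n = 2 each).

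Of 6 other leukotriene and lipoxin receptors, Fpr2, which binds formyl peptides and lipoxin A4, was the 1 tested. It measured 2.11 and 1.96 FPKM in the SRBC libraries and 0.263 and 1.12 FPKM in the PBS libraries, with a log2 fold change of 0.89 ± 0.31 (SE, adjusted p = 0.038, limma). The call was lost under 10 of 14 alternatives, each library rescaling included, and the q-value in the authors' deposited table was 0.29.

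Genes of cyclic AMP signalling, which EP4 raises and EP3 lowers, were described with a pair of lists that share Pde4b and Pde4d. Both lists were chosen with earlier results of these data known, so their counts and adjusted p-values are a description. Of 24 genes for cyclic AMP production, protein kinase A and phosphodiesterases, 18 were tested, of which 6 were called higher and 2 lower (13.5% and 6.2% over all tested loci), with a median log2 fold change of 0.30. Crtc2, a coactivator of CREB, rose to 109 and 98.4 FPKM in the SRBC libraries, against 30.7 and 34.6 FPKM in the PBS libraries (log2 fold change 1.64 ± 0.22 SE, adjusted p = 8.7e-07, limma). Pde3b, a phosphodiesterase gene, rose to 9.80 and 13.8 FPKM in the SRBC libraries, against 3.25 and 3.61 FPKM in the PBS libraries (1.51 ± 0.27 SE, adjusted p = 8.3e-05, limma). The cyclase gene Adcy7 fell to 20.5 and 20.7 FPKM in the SRBC libraries, against 42.3 and 47.1 FPKM in the PBS libraries (-1.08 ± 0.22 SE, adjusted p = 5.6e-04, limma). Pde4d, a cyclic AMP phosphodiesterase gene, was at 1.84 and 2.80 FPKM in the SRBC libraries and 0.202 and 0.372 FPKM in the PBS libraries. It passed the filter through the SRBC libraries alone, so its log2 fold change of 1.36 ± 0.30 (SE) is a description. Gnas, which encodes the stimulatory G protein that couples EP4 to cyclases, was the most abundant and was not called, at 261 and 383 FPKM in the SRBC libraries and 211 and 216 FPKM in the PBS libraries.

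Of 16 genes often induced by cyclic AMP, 15 were tested. Of these, 10 were called higher and 3 lower (Nr4a3, Sik1 and Rgs2), against 13.5% and 6.2% over all tested loci. Their median log2 fold change was 1.05, beside 0.07 for all tested loci. Other signals induce these genes too, and the list was chosen with earlier results of these data known, so nothing is read from its counts. Pde4d and Thbs1 among those called higher, and Nr4a3 among those called lower, passed the filter through the group where they were high and had to differ. Il1rn, the interleukin 1 receptor antagonist, rose to 54.7 and 75.6 FPKM in the SRBC libraries, against 3.66 and 3.73 FPKM in the PBS libraries (3.80 ± 0.24 SE, adjusted p = 2.0e-13, limma). Crem, a CREB family gene with repressor isoforms, rose to 12.3 and 14.6 FPKM in the SRBC libraries, against 2.97 and 4.25 FPKM in the PBS libraries (1.66 ± 0.26 SE, adjusted p = 1.8e-05, limma). Fosl2, an AP-1 factor, rose to 32.3 and 35.0 FPKM in the SRBC libraries, against 12.1 and 8.90 FPKM in the PBS libraries (1.61 ± 0.24 SE, adjusted p = 4.8e-06, limma). Dusp1, a phosphatase of MAP kinases, was the most abundant gene not called, at 659 and 719 FPKM in the SRBC libraries and 786 and 406 FPKM in the PBS libraries.

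Nr4a3, a nuclear receptor gene of this list, was listed at 0 in both SRBC libraries and at 35.3 and 17.8 FPKM in the PBS libraries. It was the 1 named locus listed at 0 in both SRBC libraries and at 10 FPKM or more in both PBS libraries, so a failed estimate is possible and no fold is given. Its relative Nr4a1 was called higher (adjusted p = 0.010, limma, beside a q-value of 0.147 in the authors' deposited table), at 541 and 575 FPKM in the SRBC libraries and 436 and 166 FPKM in the PBS libraries. Over both cyclic AMP lists, 14 of 31 tested loci were higher and 5 lower, or 7 and 6 after quantile normalization, 8 and 6 with TPM, 9 and 6 with upper-quartile rescaling, 9 and 4 without SRBC library 2 or without PBS library 2, and 13 and 3 without SRBC library 1. As reported, 13.5% of all tested loci were called higher and 6.2% lower. PBS library 1 exceeded PBS library 2 in Nr4a1, Gem and Dusp1. It also did so in the summed markers of each list of other spleen cells except platelets. Plasmacytoid dendritic cell markers, for example, summed to 91.8 and 18.2 FPKM in PBS libraries 1 and 2, and NK cell markers to 8.49 and 1.95 FPKM. The part of those cells in these values was not tested.

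**Figure D4:**
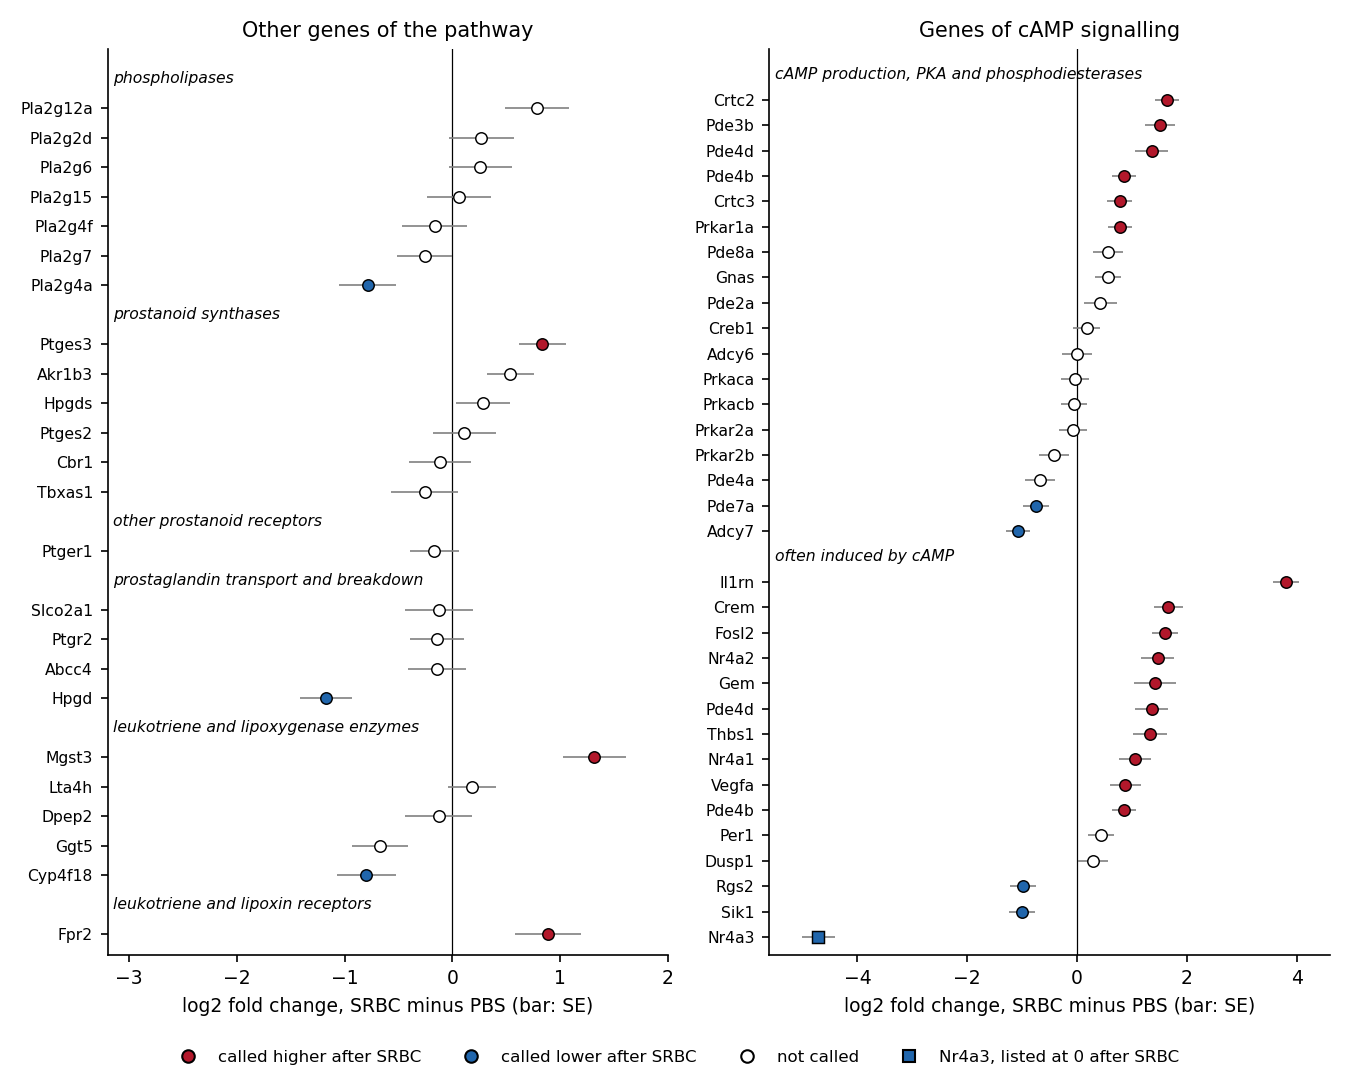
Points are log2 fold changes on the log2(FPKM + 1) scale, positive where SRBC is higher, with bars of 1 SE, for the tested genes of the other pathway lists (left) and of cyclic AMP signalling (right), red where called higher, blue where called lower and open where not called. At the left 3 of 24 are red and 3 blue, and at the right most called genes lie above 0, with the square of Nr4a3 standing for a gene listed at 0 after SRBC.

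**Figure D5:**
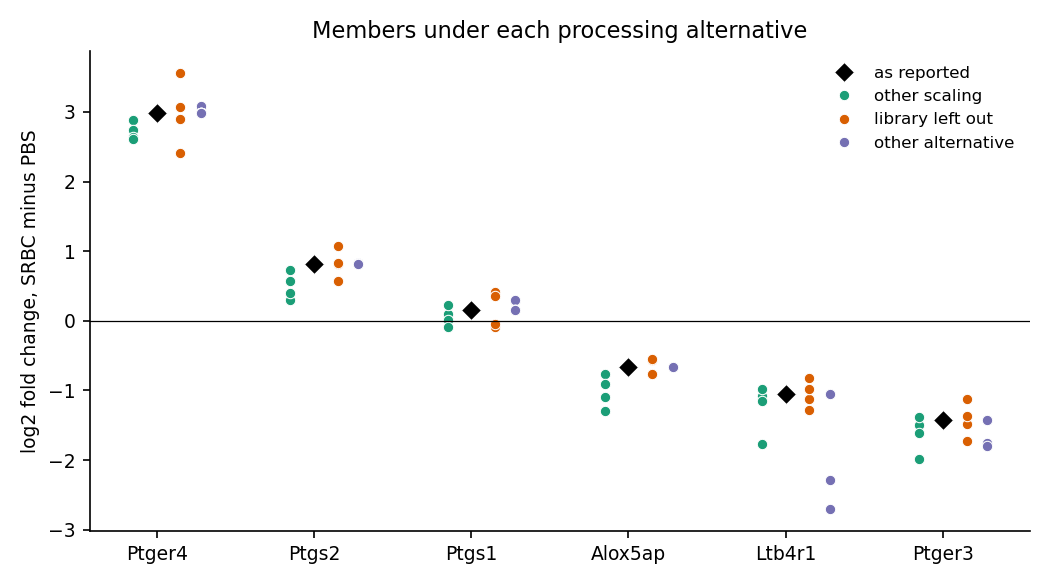
For the 6 members that passed the filter, the black diamond is the log2 fold change as reported and the coloured points its value under other scalings, with a library left out, and under the other alternatives. Ptger4 stays between 2.40 and 3.57 and Ptger3 between -1.98 and -1.12, Ptgs2 is above 0 throughout, Alox5ap and Ltb4r1 are below 0 throughout, and Ptgs1 lies on both sides of 0.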

How the data were processed

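Deposited values were FPKM for each locus in each library, per the file headers, beside q-values that the authors computed with cuffdiff for control against immunized mice. The submitters' processing notes name mm10, Cufflinks 2.1.1, TopHat2 2.0.8b and CASAVA. The sources used here give no annotation, scaling option, strand or read totals. Per the labels' protocols, cDNA was amplified with an Ovation kit.

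The 11020 named loci (of 30043 loci) that reached 1 FPKM in 2 or more libraries were fitted with limma 3.58.1 in R 4.3.3 (lmFit, then eBayes, trend on) on log2(FPKM + 1), 2 SRBC against 2 PBS libraries, two-sided, with Benjamini-Hochberg adjustment over all tested loci and a threshold of 0.05. That scale understates changes of scarce transcripts. With 2 residual and 28.7 prior degrees of freedom, most of the spread was shared across loci, and with 3 splits of 2 against 2 no permutation test could pass. No label ties the libraries to separate mice, and the spread that p-values measure may be technical. Fragments were estimated from the smallest FPKM steps of loci with 1 annotated transcript. Coordinates and exon overlaps came from GENCODE M21 on GRCm38 (mm10), promoters from RefSeq. Genes, lists and alternatives were chosen with earlier results of these data known. Named genes were all members, each called gene of the other pathway lists (at most 4 for cyclic AMP lists) and the most abundant gene not called. Ehd1, Skint3 and their like follow the nearest-pattern rule. Nr4a1, Gem and Ttc33 were named after their values were seen. The procedure was tested on simulated data in which low baseline levels were raised to a floor. That test therefore does not cover scarce loci such as Ltb4r1.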

Additional observations from a re-analysis of the deposited data

How the results depend on the processing

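Choices were changed one at a time under 14 alternatives, and a fifteenth, removal of loci listed at 0, was added after seeing the data. As reported, 1488 loci were called higher and 683 lower, with 2 and 3 of the members, 3 and 3 of the other pathway genes and 14 and 5 of the cyclic AMP genes. With no filter on low values the counts were 751 and 184 for all loci and 1 and 1 for members. They were 3 and 1 for the other pathway genes, and 7 and 2 for cyclic AMP genes. With a minimum of 5 FPKM, 1 other pathway gene was higher. With TPM, and with quantile, upper-quartile or median-of-ratios rescaling, 1 member (Ptger4) was called higher. Upper-quartile rescaling gave 1417 loci lower and 9 cyclic AMP genes higher, quantile normalization 924 loci, 1 other pathway gene and 7 cyclic AMP genes higher, and TPM 629 loci higher and 1648 lower, with 1 and 8 higher in these lists. Calls were 68.5% higher as deposited and 58.3%, 41.9%, 49.9% and 27.6% higher with median-of-ratios, upper-quartile, quantile and TPM rescaling, where the median over tested loci was -0.014, -0.14, -0.039 and -0.33 on the log2 scale. The cause of these shifts was not tested.

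Leaving out 1 library gave 746 (without SRBC library 2) to 1641 loci higher and 273 (without SRBC library 1) to 993 lower, with 289 lower without SRBC library 2, 1 to 2 members higher and 2 lower, 1 to 3 other pathway genes higher and 1 to 3 lower, and 9 to 14 cyclic AMP genes higher and 3 to 5 lower; the group with a lone library was assumed to vary like the other. With the replicate number as a block, 1684 loci were higher and 620 lower, and the members were 2 and 2, with Ltb4r1 not called. Deviations of same-numbered libraries correlated at 0.052. With 2 libraries a group this is a single value, which cannot show whether same-numbered libraries were handled together. Values under about 1 FPKM rest on few fragments, and the depth of these libraries limits what can be said of Ptges, Ptger2, Ptgir and Alox5.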
